A study of Mus musculus with 24 samples.

Results

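The transcripts of 10 enzymes of methionine and cysteine metabolism were followed in mouse liver after an acetaminophen overdose: Mat1a, Gnmt, Ahcy, Bhmt, Bhmt2, Cbs, Cth, Cdo1, Csad and Gss. They were chosen by gene symbol, with earlier results of these data known, and are 10 of the 50657 symbols counted in every library. All 10 were among the 13204 genes that passed the filter on low counts. RNA came from livers of individual mice, either wild-type (WT) or lacking the epidermal growth factor receptor, Egfr, in hepatocytes only (KO). WT and KO mice at 1, 3 and 12 h had received 500 mg/kg acetaminophen, and WT and KO livers taken at 0 h were the reference. Each of the 8 groups held 3 mice. Whether the mice at 0 h received a vehicle, or which Cre driver removed Egfr, is not stated in the labels, which also leave out strain, sex and age. Mice at different times are different animals, the 3 responses of a genotype share the same 0 h mice, and the time after dosing cannot be told apart from the time of day or from handling.

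In the liver, the methionine cycle turns methionine into S-adenosylmethionine, the general methyl donor, and then into homocysteine. Homocysteine is either methylated back to methionine, with betaine or a folate as the donor, or passed through transsulfuration to cysteine. Cysteine supplies glutathione, which binds the reactive metabolite of acetaminophen, and is otherwise oxidised to taurine or sulfate.

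The libraries held 3.54 to 7.58 M counts on genes, of which 39.6% to 50.4% came from mitochondrial ribosomal RNA. That share was 44.8% to 50.4% in the libraries at 12 h and at most 43.2% at the other times, and the TMM factors, which scale library totals, were 0.814 to 0.971 at 12 h and at least 1 before. Levels are given as CPM, the count of a gene relative to the scaled total of its library, which allow a gene to be compared between mice but not with another gene, since they are not corrected for transcript length. The targeted gene Egfr had 393 ± 63.9 CPM in WT and 82.4 ± 25.3 CPM in KO livers at 0 h (mean ± SD, n = 3 each), and averaged over the times the difference was -1.51 on the log2 scale (edgeR adjusted p = 0.0504). Levels of Egfr at 1, 3 and 12 h were 380 ± 41.6, 464 ± 165 and 223 ± 33.9 CPM in WT. In KO livers they were 209 ± 110, 179 ± 94.4 and 75.4 ± 38 CPM. With all 24 libraries in the edgeR fit, the difference passed at no single time (adjusted p = 0.0946, 0.54, 0.216 and 0.243 at 0, 1, 3 and 12 h). An edgeR fit of only the groups compared brought the 0 h value to 0.00262, and DESeq2 to 0.000497. Neither passed at 1, 3 or 12 h. The 0 h value stayed above 0.05 with no filter on low counts (0.0607) and with library size alone (0.13). For the average over the times, DESeq2 gave adjusted p = 3.93e-08. By edgeR that average had 0.0123 with no filter and 0.115 with library size alone. Egfr in 1 library went against its label, with 335 CPM in the library labelled KO 1 h replicate 1, and the lowest WT library of that time had 332 CPM. The summed level of 8 hepatocyte markers was 29404 to 56096 CPM per library, whereas 11 markers of pancreatic acinar cells summed to 1.01 to 5.21 CPM. WT 3 h replicate 1 stood apart from replicates 2 and 3 of its group. The variance between replicates was 17.1 and 21.6 times that of counting for the pairs with replicate 1, and 3.97 times for replicates 2 and 3. WT 0 h replicate 2 also stood apart, at 16.8 and 18.1 times for its pairs with replicates 1 and 3 against 4.99 times for those 2. Values without WT 3 h replicates 2 and 3 come from a fit in which that group is 1 mouse, assumed to vary like the other groups. In bulk tissue, fewer cells of a type and less RNA per cell cannot be told apart.

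Bhmt, betaine-homocysteine methyltransferase, had the largest change of the 10 from 0 h in WT livers at each time. It uses betaine to methylate homocysteine back to methionine. WT livers at 0 h held 1734, 1525 and 1771 CPM, and those at 1 h held 4285, 5258 and 4056 CPM. The later WT livers held 5609, 3773 and 3206 CPM at 3 h, then 3582, 4208 and 3639 CPM at 12 h. Every treated WT mouse lay above every WT mouse at 0 h. Relative to 0 h, Bhmt changed on the log2 scale by 1.43 at 1 h (SE 0.178, a 2.7-fold rise, edgeR adjusted p = 1.87e-06), 1.32 at 3 h (SE 0.178, adjusted p = 4.44e-06) and 1.18 at 12 h (SE 0.177, adjusted p = 5.85e-06). Without WT 3 h replicates 2 and 3 the value at 3 h was 1.74, with adjusted p = 2.31e-07.

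KO livers started from a higher measured level of Bhmt, 2911, 2959 and 2324 CPM at 0 h. The KO mice then showed 3204, 4481 and 4382 CPM at 1 h, followed by 4358, 5304 and 5142 CPM at 3 h. By 12 h they were down to 3957, 3123 and 2693 CPM. The KO mice at 1 and 3 h lay above all KO mice at 0 h, and those at 12 h overlapped them. Bhmt rose by 0.56 at 1 h (SE 0.175, adjusted p = 0.0449) and by 0.85 at 3 h (SE 0.176, a 1.81-fold rise, adjusted p = 0.00162). At 12 h the change was 0.25 (SE 0.175, adjusted p = 0.292), and between 3 and 12 h Bhmt fell by 0.60 (SE 0.175, adjusted p = 0.02). The call at 1 h was lost when any of 5 libraries was left out, KO 0 h replicates 1, 2 or 3 and KO 1 h replicates 2 or 3, with adjusted p between 0.0641 and 0.181, and also with library size alone (0.0602) and gene-strand counts (0.0535). The fall from 3 to 12 h was lost without KO 3 h replicate 2 or 3 or KO 12 h replicate 2 or 3, each alone (adjusted p from 0.0609 to 0.105). Without the library labelled KO 1 h replicate 1 the change at 1 h was 0.72 and adjusted p = 0.012.

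**Figure D1:**
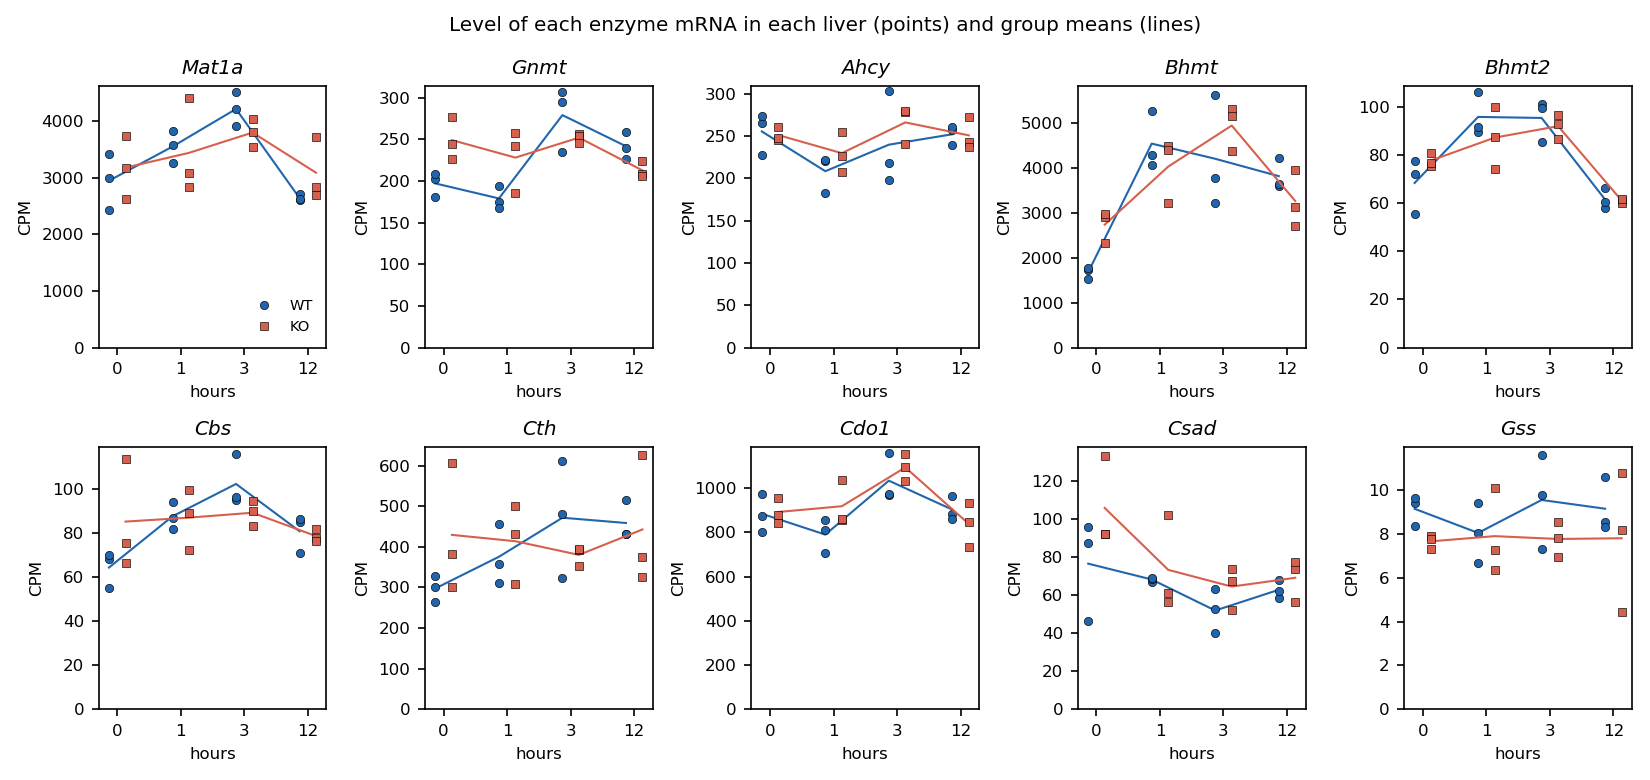
Level of each of the 10 enzyme transcripts in every mouse, in CPM on a linear axis that starts at 0, against hours after acetaminophen (spaced evenly, not to scale), WT as circles and KO as squares. Points are mice and lines join group means (n = 3). Bhmt in WT livers lies between 1525 and 1771 CPM at 0 h and between 3206 and 5609 CPM afterwards.

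Bhmt2, a paralog of Bhmt that uses S-methylmethionine as methyl donor, rose early in WT livers and then returned. The 0 h values in WT were 77.5, 55.5 and 71.9 CPM, followed by 106, 89.4 and 91.7 CPM at 1 h. Mice taken at 3 h had 101, 99.5 and 85.3 CPM, and those taken at 12 h had 57.9, 66.1 and 60.2 CPM, inside the range at 0 h. The rise was 0.48 on the log2 scale at 1 h (SE 0.12, adjusted p = 0.0093) and 0.48 at 3 h (SE 0.121, adjusted p = 0.00671), with no overlap with 0 h at either time. Between 3 and 12 h Bhmt2 fell by 0.63 (SE 0.124, adjusted p = 0.000533). Both rises were lost without WT 0 h replicate 2, the lowest mouse, at adjusted p = 0.0831 and 0.0608, and that at 1 h also without WT 1 h replicate 1 (adjusted p = 0.0649).

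KO livers at 0 h had 75.5, 80.7 and 76.7 CPM of Bhmt2, close to the 74, 87.3 and 100 CPM of KO livers at 1 h. Bhmt2 reached 92.6, 86.5 and 96.5 CPM at 3 h. By 12 h it was 61.3, 59.9 and 61.8 CPM, and all 3 mice lay below every KO mouse at 0 h. The changes at 1 and 3 h, 0.17 and 0.24, did not pass (adjusted p = 0.455 and 0.223). Bhmt2 fell by 0.35 from 0 to 12 h (SE 0.125, adjusted p = 0.0342) and by 0.59 from 3 to 12 h (SE 0.125, adjusted p = 0.00128). The first of these was lost when any of the 6 KO libraries at 0 and 12 h was left out (adjusted p from 0.0512 to 0.108) or with gene-strand counts (0.0645), the second under none of the settings tried. Bhmt and Bhmt2 are similar in sequence, so some reads may have been assigned to neither or to the other gene.

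Mat1a, the liver form of methionine adenosyltransferase that makes S-adenosylmethionine, peaked at 3 h in WT livers. The WT mice at 0 h had 2998, 2434 and 3412 CPM, and those at 1 h had 3827, 3571 and 3255 CPM. Their level was 3908, 4220 and 4517 CPM at 3 h, then 2599, 2709 and 2617 CPM at 12 h. The 3 h mice lay above all mice at 0 and 12 h. The rise at 3 h was 0.52 (SE 0.16, adjusted p = 0.0269), and the fall from 3 to 12 h was -0.67 (SE 0.16, adjusted p = 0.00385). Without WT 3 h replicates 2 and 3 these were 0.41 (adjusted p = 0.301) and -0.57 (adjusted p = 0.121). The rise was also lost without WT 0 h replicate 1 or 2 or WT 3 h replicate 2 or 3, each alone, with adjusted p between 0.0579 and 0.133, and in a fit restricted to WT at 0 and 3 h (0.102). KO mice at 0 h had 2625, 3176 and 3736 CPM, which overlapped the 3543, 3817 and 4036 CPM of KO mice at 3 h (log2 change 0.26, adjusted p = 0.356).

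Gnmt, glycine N-methyltransferase, spends surplus S-adenosylmethionine on glycine. WT livers at 0 h held 202, 208 and 181 CPM, and those at 1 h held 175, 194 and 168 CPM. The level was 295, 235 and 307 CPM at 3 h, then 226, 259 and 240 CPM at 12 h. Gnmt rose by 0.50 at 3 h (SE 0.124, a 1.42-fold rise, adjusted p = 0.00503), a call kept under every setting tried, and at 12 h it was 0.30 above 0 h without passing (adjusted p = 0.0774). KO livers at 0 h held 226, 244 and 277 CPM, beside 256, 254 and 246 CPM at 3 h. No KO response of Gnmt passed (log2 changes -0.13, 0.02 and -0.23). KO mice at 12 h had 208, 224 and 206 CPM, all below those at 0 h (adjusted p = 0.172). The difference at 12 h passed with no filter on low counts (adjusted p = 0.0438) and with library size alone (0.00314).

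Ahcy, which splits S-adenosylhomocysteine into homocysteine and adenosine, passed in no comparison. Its group means lay between 209 and 266 CPM in all 8 groups. The lowest was WT at 1 h, with 220, 222 and 183 CPM, and the WT mice at 0 h had 265, 227 and 274 CPM, groups that did not overlap (log2 change -0.29, SE 0.13, adjusted p = 0.197).

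Cbs, cystathionine beta-synthase, commits homocysteine to transsulfuration. WT livers at 0 h had 68.4, 70 and 54.9 CPM, and those at 1 h had 94.4, 82 and 86.8 CPM. The level was 95.1, 96.3 and 116 CPM at 3 h, then 85.1, 86.7 and 71.1 CPM at 12 h. All WT mice after the dose exceeded all WT mice at 0 h. Cbs rose by 0.67 at 3 h (SE 0.15, a 1.6-fold rise, adjusted p = 0.00224), and the changes at 1 h (0.45, adjusted p = 0.0624) and 12 h (0.33, adjusted p = 0.116) did not pass. At 1 h Cbs passed with no filter on low counts (adjusted p = 0.0121) and in a fit of WT at 0 and 1 h alone (adjusted p = 0.0381). It also passed with at least 1 CPM in 3 libraries (adjusted p = 0.0473). The same held without KO 0 h replicate 2 or 3 or KO 1 h replicate 2 or 3, each alone (adjusted p from 0.0191 to 0.0473). Without WT 3 h replicates 2 and 3 the value at 3 h was 0.56 and adjusted p = 0.0873. KO livers at 0 h spread from 66.6 to 114 CPM, and no KO response passed.

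Cth, cystathionine gamma-lyase, releases cysteine from cystathionine. It varied widely between mice of the same group. WT livers at 0 h had 329, 301 and 263 CPM, and those at 1 h had 359, 457 and 311 CPM. The level was 481, 324 and 611 CPM at 3 h, then 431, 431 and 515 CPM at 12 h. The WT mice at 12 h lay above those at 0 h, yet neither the value at 3 h (0.66, SE 0.276, adjusted p = 0.124) nor that at 12 h (0.62, SE 0.276, adjusted p = 0.11) passed. With only the groups compared, the value at 12 h was 0.64 and passed (adjusted p = 0.000964). In KO livers the groups overlapped at every time, with a range of 301 to 606 CPM at 0 h, 309 to 500 CPM at 1 h, 352 to 396 CPM at 3 h, and 327 to 627 CPM at 12 h.

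Cdo1, cysteine dioxygenase, starts the oxidation of cysteine toward taurine and sulfate. It stayed between 705 and 1161 CPM in all 24 livers. KO livers at 3 h had 1094, 1032 and 1155 CPM, those at 12 h had 845, 934 and 734 CPM, and Cdo1 fell by 0.38 between them (SE 0.125, adjusted p = 0.0385). That call was lost without KO 3 h replicate 1 or 3 or KO 12 h replicate 1 or 3, each alone (adjusted p from 0.0672 to 0.155) and with gene-strand counts (0.0606), and no change from 0 h passed.

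Csad, cysteine sulfinate decarboxylase, makes hypotaurine from the product of Cdo1. KO livers at 0 h had 92.1, 92.4 and 133 CPM. Csad was at 73.7, 52.3 and 67.4 CPM in KO at 3 h, then at 56.3, 73.5 and 77.5 CPM at 12 h. The KO mice at 3 and 12 h all lay below those at 0 h, and neither difference passed (-0.71 with adjusted p = 0.0924 and -0.62 with adjusted p = 0.0858). Csad at 3 h passed with DESeq2 (adjusted p = 0.0461), and at both times with only the groups compared (adjusted p = 0.0246 and 0.0163). It passed at both times without WT 0 h replicate 3 (adjusted p = 0.0261 and 0.0245). The same held without the library labelled KO 1 h replicate 1 (adjusted p = 0.0488 and 0.0449). In WT, Csad was at 76.5 ± 26.7 CPM at 0 h, 51.9 ± 11.6 CPM at 3 h and 62.8 ± 4.69 CPM at 12 h. The WT mice at 3 and 12 h overlapped those at 0 h. The WT changes were -0.55 at 3 h (adjusted p = 0.183) and -0.28 at 12 h (adjusted p = 0.482). The KO response minus the WT response was -0.16 at 3 h and -0.34 at 12 h (adjusted p = 0.954 and 0.818).

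Gss, glutathione synthetase, joins glycine to gamma-glutamylcysteine in the last step of glutathione synthesis. Its 18 to 73 counts per library gave 4.42 to 11.6 CPM, with no response past the threshold. The counts taken without regard to strand held 51.7% of those on its own strand. By counts on its own strand no comparison of Gss passed either.

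Counted together, 2 of the 10 passed in WT livers at 1 h, both higher, when 8.09% of all genes passed in either direction and 4.09% upward. At 3 h the count was 5 of 10, Mat1a, Gnmt, Bhmt, Bhmt2 and Cbs, all higher, when 14.1% of all genes passed and 7.28% upward. At 12 h 1 of the 10, Bhmt, was higher in WT, when 25.6% of all genes passed, 13.4% upward and 12.2% downward, so the share of members was not above that of all genes. In KO livers 1 of 10, Bhmt, was higher at 1 h, beside 7.58% of all genes in either direction and 3.95% upward. At 3 h 1 of 10, again Bhmt, was higher, beside 9.95% and 5.11%. At 12 h 1 of 10, Bhmt2, was lower, beside 28.8% of all genes, 15.1% upward and 13.7% downward. Between 3 and 12 h, 2 of 10 fell in WT, beside 12.8% of all genes and 5.38% downward. Over the same step 3 of 10 fell in KO, beside 12.9% and 5.06%. The median change of the 10 was 0.49 in WT at 3 h, against -0.00177 for all genes, and 0.07 in KO at 3 h, against -0.0194.

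Groups that did not overlap with 0 h numbered 5 of 10 in WT at 3 h and 4 of 10 in KO at 3 h, where 28.6% and 30.8% of all genes did not overlap. At 1 h the number was 4 of 10 in WT and 1 of 10 in KO, beside 24.7% and 26% of all genes. At 12 h it was 4 of 10 in WT and 3 of 10 in KO, beside 39.9% and 41.1%. For 12 h against 3 h it was 4 of 10 in WT and 5 of 10 in KO, beside 30% and 29.4%. Without WT 3 h replicates 2 and 3, calls in WT at 3 h numbered 3: Gnmt, Bhmt and Bhmt2. Without WT 0 h replicate 2, calls in WT numbered 1 at 1 h, 3 at 3 h (Gnmt, Bhmt and Cbs) and 1 at 12 h. Scaling by library size alone also gave 3, as Mat1a (adjusted p = 0.113) and Bhmt2 (adjusted p = 0.0509) were lost. That scaling moved the median of all genes at 12 h to -0.37 in WT and -0.26 in KO, and with it 4 members were lower at 12 h in WT (Mat1a, Ahcy, Bhmt2 and Csad) and 4 in KO (Gnmt, Bhmt2, Cbs and Csad).

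**Figure D2:**
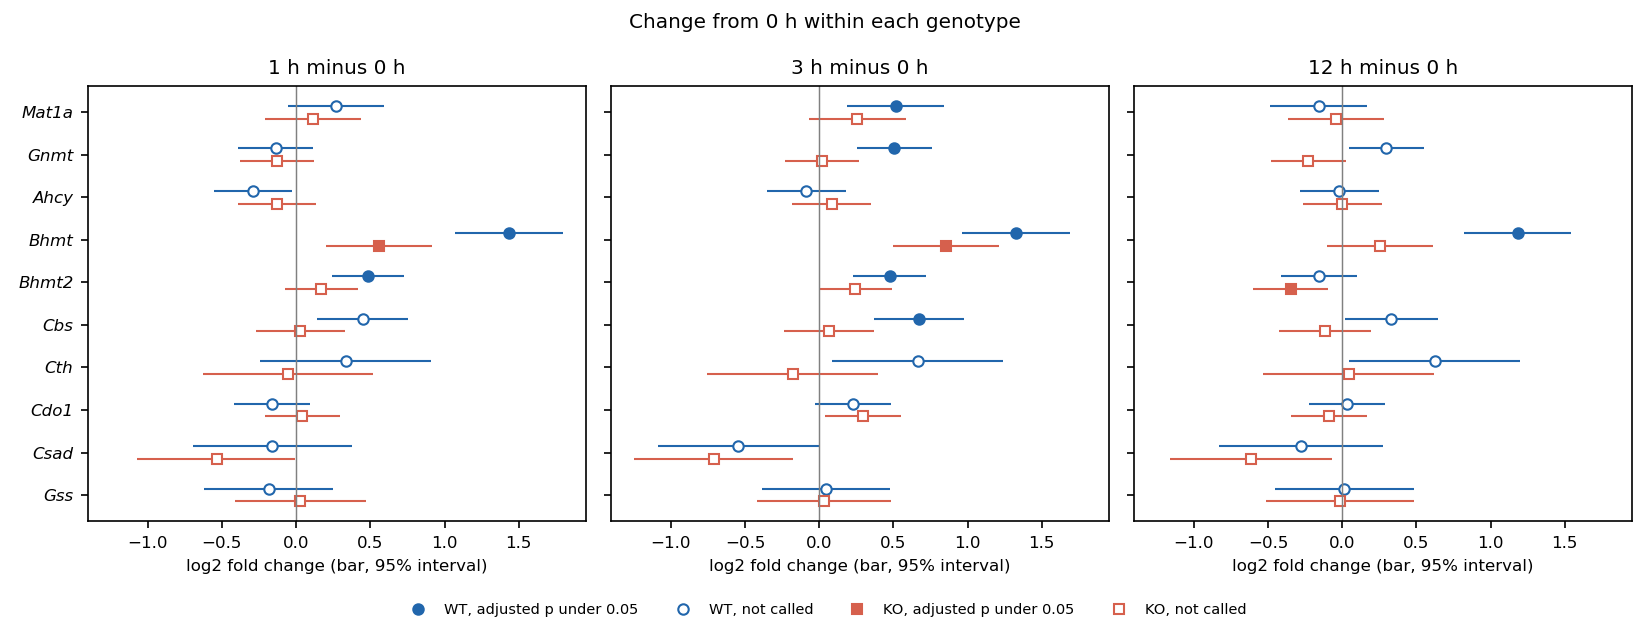
Log2 change from 0 h of each of the 10 transcripts in WT (circles) and KO (squares) livers, with 1 panel each for 1, 3 and 12 h and bars for 95% intervals of the fitted model that are not adjusted for the number of genes. Filled symbols mark changes that passed an adjusted p of 0.05, 5 of them in WT at 3 h and 1 in KO at 3 h.

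Hepatocyte markers moved beside the rise at 3 h. In WT at 3 h, 4 of the 8 hepatocyte markers were called higher, and their summed level was 44683 to 56096 CPM, against 30838 to 35120 CPM at 0 h. In KO at 3 h none of the 8 was called, at 37106 to 39305 CPM against 29404 to 39191 CPM. Of 8 periportal hepatocyte markers, 3 were called higher in WT at 3 h and 0 in KO. Red blood cell markers summed to 79.8, 251 and 330 CPM in the WT mice at 3 h, against 63.4 to 145 CPM at 0 h, and 1 of 5 was called higher. At 12 h, pericentral hepatocyte markers were called lower for 5 of 8 in WT and 4 of 8 in KO. The 8 hepatocyte markers then had 3 called higher in WT and 1 in KO. At 1 h, Kupffer cell markers were called lower for 5 of 8 in WT (median change -0.934), with sums of 46.2 to 53.3 CPM against 63 to 125 CPM at 0 h, and for 0 of 8 in KO. Of all genes, 7.28% were called higher in WT and 5.11% in KO at 3 h. At 12 h, 12.2% were called lower in WT and 13.7% in KO, and 13.4% and 15.1% higher. At 1 h, 4% were called lower in WT and 3.64% in KO. The part of the cell type markers in the enzyme levels was not tested.

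Bhmt, Bhmt2, Gnmt and Cbs rose together in WT livers at 3 h, and the 250 bases before their transcription starts are shown so that the regions can be compared. They come from RefSeq on build GRCm38.p6, which had entries for 7 of the 10 genes; Mat1a, Cth and Cdo1 had none. All 4 lie on the minus strand: Bhmt at chr13:93637759-93638008, Bhmt2 at chr13:93674303-93674552, Gnmt at chr17:46729166-46729415 and Cbs at chr17:31637206-31637455. Each is written 5′ to 3′ on the gene's strand, ending at the base before the start. Capitals mark matches to the motifs below that were found in these 4: AGGTCA on either strand (TGACCT when on the other strand), CAAAGGTCA and CACGTG.
Bhmt: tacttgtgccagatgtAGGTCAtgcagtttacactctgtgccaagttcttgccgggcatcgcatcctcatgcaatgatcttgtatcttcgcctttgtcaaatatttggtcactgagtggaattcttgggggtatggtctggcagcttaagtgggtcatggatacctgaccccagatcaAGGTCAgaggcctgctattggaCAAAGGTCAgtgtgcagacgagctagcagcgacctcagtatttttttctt
Bhmt2: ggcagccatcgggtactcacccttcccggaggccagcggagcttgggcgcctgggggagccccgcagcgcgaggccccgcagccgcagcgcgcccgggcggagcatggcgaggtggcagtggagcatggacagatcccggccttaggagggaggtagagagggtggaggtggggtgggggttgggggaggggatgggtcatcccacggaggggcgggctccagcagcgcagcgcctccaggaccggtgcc
Gnmt: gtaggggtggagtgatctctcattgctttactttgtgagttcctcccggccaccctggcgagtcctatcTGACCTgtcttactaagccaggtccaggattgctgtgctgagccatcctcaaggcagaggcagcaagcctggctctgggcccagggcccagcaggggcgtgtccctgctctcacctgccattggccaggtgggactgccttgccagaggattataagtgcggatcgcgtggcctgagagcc
Cbs: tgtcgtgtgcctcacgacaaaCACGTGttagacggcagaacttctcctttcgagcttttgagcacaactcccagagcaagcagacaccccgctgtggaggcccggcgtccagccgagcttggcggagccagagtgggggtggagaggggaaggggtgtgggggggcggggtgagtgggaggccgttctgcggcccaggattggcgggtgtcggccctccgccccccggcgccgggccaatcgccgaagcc

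Of 9 motifs searched first on both strands, 8 matched none of the 7 promoters. These were TATAAA (the TATA box, in 12.4% of 32851 promoters), TGACNNNGC (antioxidant response core, 10.2%), TGATGNAAT (0.816%), TTGCATCA (0.791%), TTGCGCAA (C/EBP, 0.164%), the direct repeat 1 element (0.0335%), the HNF1 element (0.00913%) and the glucocorticoid response element (0.00913%). The ninth, the E-box CACGTG, occurs in 6.02% of promoters and was found in Cbs, 229 to 224 bases before the start. AGGTCA, a core element bound by nuclear receptors, and the longer CAAAGGTCA, which contains it, were added after the sequences were seen. AGGTCA occurs in 14% of promoters and in 4 of the 7 (Ahcy, Bhmt, Gnmt and Gss). Bhmt holds it at 3 places, 234 to 229, 72 to 67 and 47 to 42 bases before the start, the last inside CAAAGGTCA, which occurs in 0.426% of promoters. Bhmt2 had no match to any of the 11. A match is a description of these letters and not evidence of binding.

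Loss of Egfr in hepatocytes was compared with WT at each time. None of the 10 passed at 0, 1, 3 or 12 h, when 0.0151%, 0.492%, 0.977% and 0.053% of all genes passed by edgeR, nor averaged over the times, when 0% of genes did. At an unadjusted p under 0.05 there were 3 members for 0 h, 1 for 1 h and 0 for each of the other times and for the average. Over all 13204 genes the same threshold gave 1072, 1289, 1377 and 1362 genes at 0, 1, 3 and 12 h, and 929 for the average. Other settings gave 0 members as well, DESeq2 among them, with Bhmt at 0 h as the exception. Bhmt differed by 0.70 at 0 h (SE 0.175, 95% interval 0.346 to 1.06, adjusted p = 0.159), with all 3 KO mice (2324 to 2959 CPM) above all WT mice (1525 to 1771 CPM). It passed with no filter on low counts (adjusted p = 0.0362), without WT 3 h replicate 1 (adjusted p = 0.0381) and without WT 3 h replicates 2 and 3 (adjusted p = 0.0446), libraries outside the groups compared that bear on the shared estimate of spread.

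Gnmt was also higher in every KO than in every WT mouse at 0 h, 226 to 277 against 181 to 208 CPM, by 0.34 without passing (95% interval 0.0881 to 0.591, adjusted p = 0.41). Gss was lower in every KO mouse at 0 h, 7.33 to 7.92 against 8.39 to 9.67 CPM (-0.25, adjusted p = 0.802). By counts on its own strand the genotypes overlapped at 0 h, and the difference of Gss was -0.0136 (SE 0.174, adjusted p = 0.996). Groups that did not overlap thus numbered 3 of 10 at 0 h, Gss among them, beside 14.4% of all genes. At each of 1, 3 and 12 h the number was 1 of 10, beside 14.9%, 15.5% and 14.5%. At 12 h the intervals still allowed sizeable differences, for example -0.582 to 0.131 for Bhmt and -0.632 to 0.527 for Cth.

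**Figure D3:**
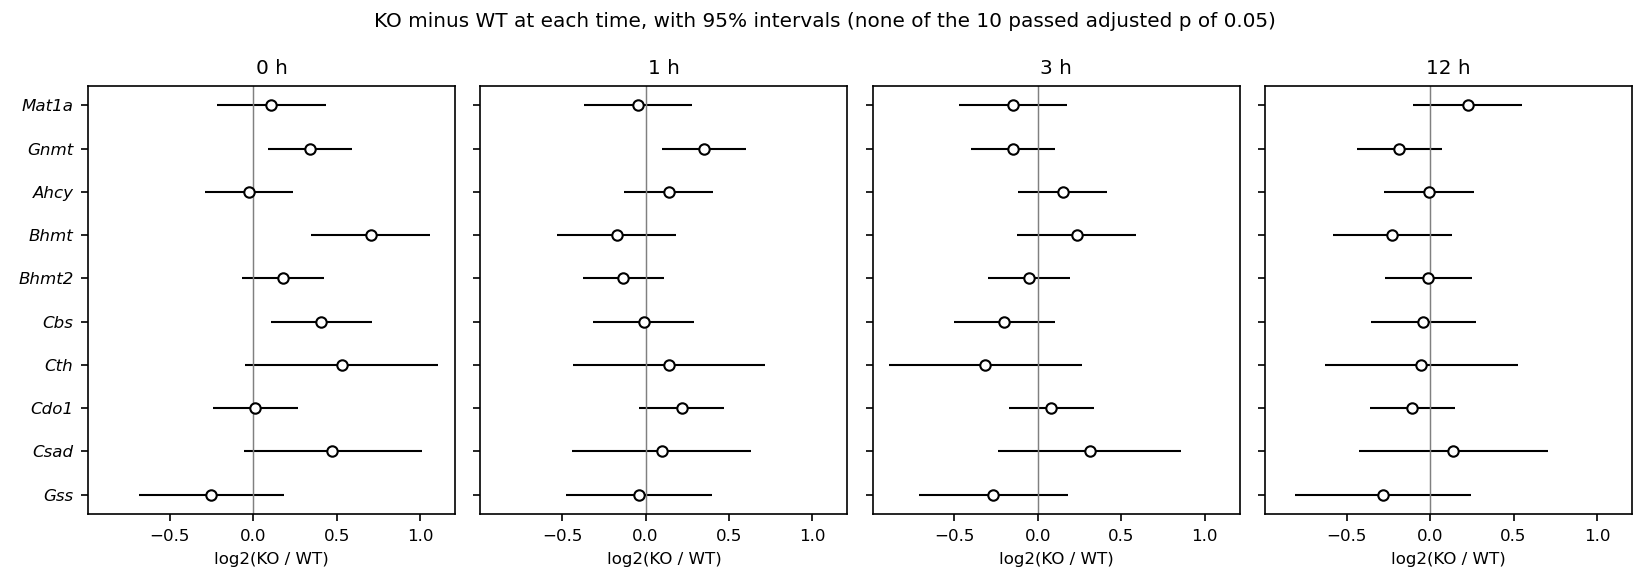
Log2 difference between KO and WT of each of the 10 transcripts at 0, 1, 3 and 12 h, with 95% intervals not adjusted for the number of genes. None of the 10 passed an adjusted p of 0.05, and the interval farthest from 0 is that of Bhmt at 0 h, 0.346 to 1.06.

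The KO response minus the WT response was tested directly. None of the 10 passed at 1, 3 or 12 h by edgeR, when 0.454%, 0.151% and 0.0227% of all genes did, and at an unadjusted p under 0.05 there were 1, 3 and 3 members, and 1443, 1145 and 1350 of all genes. With DESeq2 the counts were also 0. Bhmt had the smallest adjusted p at 1 and 12 h: its rise was smaller in KO by -0.88 at 1 h (SE 0.247, 95% interval -1.38 to -0.372, adjusted p = 0.118) and by -0.93 at 12 h (SE 0.248, 95% interval -1.43 to -0.425, adjusted p = 0.165). At 1 h it passed without WT 3 h replicate 1 (adjusted p = 0.0341) and without WT 3 h replicates 2 and 3 (adjusted p = 0.043). Without the library labelled KO 1 h replicate 1 the value was -0.73, with adjusted p = 0.195. Both genotypes reached similar levels at 1 h, 4533 ± 638 CPM in WT and 4022 ± 710 CPM in KO (SD, n = 3), from starting levels of 1677 ± 133 and 2732 ± 354 CPM.

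For Gnmt the difference of responses was -0.49 at 3 h (95% interval -0.843 to -0.133, adjusted p = 0.32) and -0.53 at 12 h (-0.883 to -0.167, adjusted p = 0.311). For Cbs it was -0.61 at 3 h (95% interval -1.04 to -0.18, adjusted p = 0.302) and -0.45 at 12 h (-0.889 to -0.00957, adjusted p = 0.475). For Cth it was -0.84 at 3 h (95% interval -1.66 to -0.0267, adjusted p = 0.552). For Mat1a, which passed at 3 h in WT and not in KO, it was -0.26 (95% interval -0.719 to 0.201, adjusted p = 0.833). The differences at 3 h without WT 3 h replicates 2 and 3 were -0.56 for Gnmt, -0.49 for Cbs and -0.14 for Mat1a (adjusted p = 0.402, 0.696 and 0.954). So the 5 calls in WT against 1 in KO at 3 h do not show that the responses differed.

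The genes around these enzymes were described by 5 further lists, also chosen with earlier results of these data known. The shares of all genes to set beside their counts at 12 h are 13.4% higher and 12.2% lower in WT, and 15.1% higher and 13.7% lower in KO. Of 16 genes that use or remake S-adenosylmethionine, 2 passed higher and 1 lower in WT at 12 h, and 1 higher and 2 lower in KO. Mat2a, the methionine adenosyltransferase of most other tissues, rose from 42.9 ± 6.42 to 89.5 ± 20 CPM in WT (log2 change 1.05, adjusted p = 1.51e-06) and from 50.5 ± 3.88 to 141 ± 23.8 CPM in KO (1.48, adjusted p = 1.95e-09). For Mat2a the counts without regard to strand were 109% of the gene-strand counts, and 88.8% of its stranded counts lay on its own strand. Both calls of Mat2a at 12 h were kept under every setting tried. Mat1a did not rise at 12 h in either genotype, with changes of -0.16 and -0.04. Gamt, the last enzyme of creatine synthesis, rose by 0.85 in WT at 12 h (adjusted p = 0.00398). For Adk, which removes the adenosine that Ahcy releases, the value in WT at 3 h was 0.36 (adjusted p = 0.0135). The call was lost without WT 0 h replicate 2 or 3 (adjusted p = 0.0552 and 0.0572), without WT 3 h replicates 2 and 3 (0.0862), with library size alone (0.0942) and in a fit of those groups only (0.123).

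Of 15 tested genes of glutathione synthesis and turnover, 4 were higher and 1 lower in WT at 12 h, and 4 higher and 3 lower in KO. Gclc, the catalytic subunit of the enzyme that joins glutamate to cysteine, rose from 64.3 ± 16.7 to 167 ± 16.4 CPM in WT (1.38, adjusted p = 5.08e-06) and from 64.8 ± 6.58 to 188 ± 36.2 CPM in KO (1.54, adjusted p = 1.07e-06). Slc3a2, the heavy chain shared by several amino acid transporters including the cystine carrier, rose by 0.88 in WT (adjusted p = 0.000295) and by 0.93 in KO (adjusted p = 0.000109). Chac2, which degrades glutathione, fell by 0.99 in WT (adjusted p = 0.00398) and by 1.39 in KO (adjusted p = 0.00016). Slc38a2, an amino acid carrier, rose in WT at 3 h by 1.10 (adjusted p = 0.000271) and at 12 h by 0.90 (adjusted p = 0.000921). In KO livers Slc38a2 rose at 1 h by 0.80 (adjusted p = 0.00773, and 0.0575 without KO 0 h replicate 1). Gclc rose in KO by 0.64 at 1 h (adjusted p = 0.0338) and by 0.82 at 3 h (adjusted p = 0.00492). Its call at 1 h was lost without KO 0 h replicate 2 or 3 or KO 1 h replicate 1 or 2 (adjusted p from 0.0901 to 0.109). Between genotypes at 3 h, Gclc was higher in KO by 0.78 (adjusted p = 0.0368) and Slc38a2 lower by -0.90 (adjusted p = 0.0175). Without WT 3 h replicates 2 and 3 neither passed, at 0.61 for Gclc (adjusted p = 0.838) and -1.13 for Slc38a2 (adjusted p = 0.108). Both calls were also lost without WT 3 h replicate 2 or 3 or any 1 of the 3 KO libraries at 3 h, at adjusted p from 0.0609 to 0.242 for Gclc and from 0.0633 to 0.122 for Slc38a2. Gclc was lost as well without WT 1 h replicate 1, WT 12 h replicate 3 or KO 12 h replicate 1 (adjusted p = 0.0505, 0.0508 and 0.0515) and in a fit of those groups only (0.192). In the same comparison 3 of 5 red blood cell markers were lower in KO (median -2.25). So were 2 of 8 hepatocyte markers (median -0.292) and 1 of 8 Kupffer cell markers, beside 0.651% of all genes. The part of these markers was not tested.

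Of 20 tested folate and betaine genes, 6 were higher and 3 lower in WT at 12 h. In KO at 12 h, 2 were higher and 12 lower, where 15.1% and 13.7% of all genes were. The list's median change was 0.09 in WT and -0.43 in KO at 12 h, against -0.011 and -0.00293 for all genes, and the difference of responses, with a list median of -0.48, passed for none of its genes. Leaving out each library in turn gave 10 to 13 lower in KO. Chdh, which makes betaine from choline and so feeds Bhmt, fell from 97.8 ± 11.6 to 38.8 ± 2.72 CPM in WT (-1.33, adjusted p = 7.42e-08) and from 109 ± 2.31 to 38.3 ± 9.2 CPM in KO (-1.52, adjusted p = 6.1e-09) at 12 h. Slc25a32, the mitochondrial folate carrier, fell by 1.16 in WT (adjusted p = 1.43e-06) and by 1.10 in KO (adjusted p = 3.94e-06).

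Mthfd1, the cytosolic enzyme that interconverts folate one-carbon units, went from 97.1 ± 4.58 to 55.9 ± 3.62 CPM in KO at 12 h (-0.80, adjusted p = 6.9e-06). Its WT level was 81.2 ± 6.23 CPM at 0 h, then 77.3 ± 4.5 CPM at 12 h. Aldh1l1, which oxidises formyl folate, rose in WT at 12 h by 0.74 (adjusted p = 9.61e-06), with 223 ± 13.8 and 220 ± 36.8 CPM at 0 and 12 h in KO. The counts without regard to strand were 79.9% of the gene-strand counts for Chdh and 77.4% for Mthfd1.

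Of 12 tested genes of methionine salvage and polyamines, 2 were higher and 0 lower in WT at 12 h, and 2 higher and 1 lower in KO. Sat1, which acetylates polyamines for breakdown, rose at 12 h by 2.18 in WT (adjusted p = 6.47e-09) and 2.87 in KO (adjusted p = 4.38e-11). It went from 14.5 ± 1.48 to 66.6 ± 16 CPM in WT and from 13.6 ± 1.13 to 98.7 ± 35.8 CPM in KO. Amd1, which decarboxylates S-adenosylmethionine for polyamine synthesis, differed by 0.55 in WT at 3 h (adjusted p = 0.0185). That call was lost without WT 0 h replicate 1 or 3 or WT 3 h replicate 3 (adjusted p from 0.0615 to 0.0632), with library size alone (0.068) and without WT 3 h replicates 2 and 3 (value 0.56, adjusted p = 0.148). In KO livers Azin1, an inhibitor of antizyme, fell by 0.61 at 12 h (adjusted p = 0.000323), and Adi1, of the salvage pathway, by 0.50 at 3 h (adjusted p = 0.0142). Adi1 was lost without KO 0 h replicate 1 or 2 or KO 3 h replicate 2 or 3 (adjusted p from 0.0561 to 0.0941).

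Of 13 tested genes of cysteine oxidation, taurine and sulfide, 1 was higher and 3 lower in WT at 12 h, and 0 higher and 8 lower in KO. The list's median was -0.09 in WT and -0.48 in KO, and the difference of responses at 12 h passed for none. Leaving out each library in turn gave 6 to 8 lower in KO. Fmo1, which can oxidise hypotaurine to taurine, fell by 0.70 in WT (adjusted p = 0.000114) and by 0.74 in KO (adjusted p = 5.19e-05). Kyat1, a transaminase that acts on cysteine conjugates, fell by 0.86 in WT (adjusted p = 0.00104) and by 0.75 in KO (adjusted p = 0.00312; 0.0514 without KO 0 h replicate 3). Suox, sulfite oxidase, and Sqor, which oxidises sulfide, fell in KO by 0.75 (adjusted p = 0.00048) and by 0.79 (adjusted p = 0.000617). Between genotypes, Kyat1 was higher in KO at 1 h by 0.75 (adjusted p = 0.0428) and Fmo1 at 3 h by 0.53 (adjusted p = 0.0293). The call of Kyat1 was lost when any of 13 of the 24 libraries was left out (adjusted p up to 0.295). These included every KO library at 1 and 12 h, WT 1 h replicates 1 and 3 and WT 3 h replicates 2 and 3, then WT 0 h replicate 2, KO 3 h replicate 2 and WT 12 h replicate 3. It was also lost with gene-strand counts (0.0559) and in a fit of those groups only (0.0565). Fmo1 was 0.26 without WT 3 h replicates 2 and 3 (adjusted p = 0.97), and its call was lost without replicate 2 or 3 of either genotype at 3 h (adjusted p from 0.12 to 0.361) and in a fit of those groups only (0.203).

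At the same time pericentral hepatocyte markers summed to 2201 to 2358 CPM in WT at 12 h, against 4111 to 5200 CPM at 0 h. In KO they summed to 1415 to 2404 CPM, against 2967 to 5585 CPM. The part of these markers in the lists' changes at 12 h was not tested. Scaling by library size alone gave 8 lower genes in WT and 13 in KO for the folate and betaine list at 12 h, and 8 and 10 for the cysteine oxidation list. With it the methionine cycle list had 9 lower in WT and 7 in KO, the glutathione list 6 and 4, and the salvage and polyamine list 2 and 2. Higher genes then numbered 2 and 1 in the methionine cycle list, 3 and 3 in the glutathione list, 4 and 2 in the folate and betaine list, 1 and 1 in the salvage list, and 0 and 0 in the cysteine oxidation list.

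**Figure D4:**
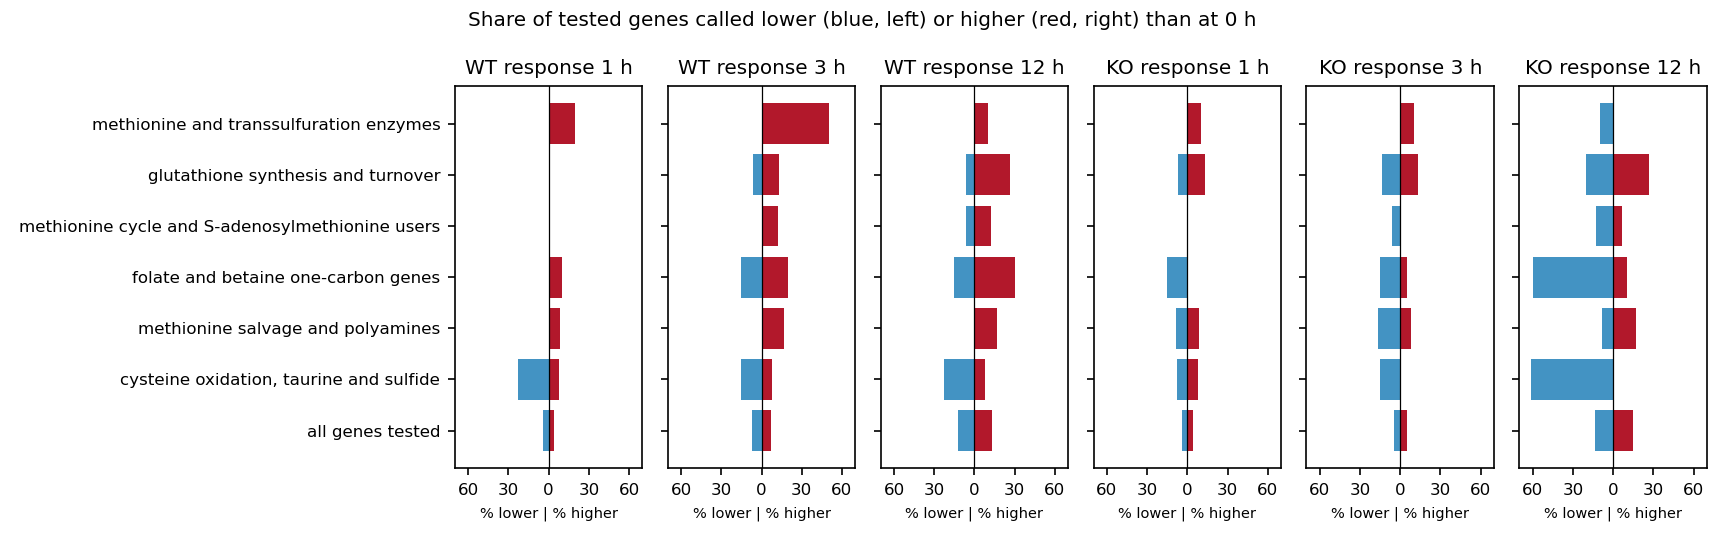
Share of tested genes called higher (red, right) and lower (blue, left) in each list, in percent, for the responses of WT and KO livers at 1, 3 and 12 h, beside the share of all tested genes. In KO at 12 h, 12 of 20 folate and betaine genes and 8 of 13 genes of cysteine oxidation were lower.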

How the data were processed

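RNA from livers of individual mice was extracted with TRIzol and sequenced on an AVITI instrument, per the labels' protocols. The values are unnormalized gene counts deposited by the authors. STAR and build mm39 are named in the submitters' processing notes, without a STAR version or a gene annotation. The table of a library lists 50657 symbols and 4 lines that name no gene: per library, 19.2% to 23.7% of reads were unmapped, 7.23% to 8.7% multimapping, 21.2% to 22.7% without a feature and 26.3% to 30.8% ambiguous. Column 2, counted without regard to strand, was used, with gene-strand counts as an alternative. For 9 of the 10 enzymes both columns differed by at most 1%.

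Counts were analysed with edgeR 4.0.16 and limma 3.58.1 in R 4.3.3: filterByExpr on the 8 groups, TMM scaling, and the robust quasi-likelihood F-test with 1 mean per group over all 24 libraries. The 16 contrasts were each adjusted (Benjamini-Hochberg) over 13204 genes, two-sided, at 0.05, and every adjusted p in the text is from this test unless another tool is named. "Settings tried" means RLE scaling, library size alone, no filter, at least 1 CPM in 3 libraries, gene-strand counts, no ribosomal RNA genes, the replicate number as a block, only the groups compared, DESeq2 1.42.0, removal of WT 3 h replicates 2 and 3, and removal of each library. Scripts were tested on simulated data. Depth was 1.75 to 4.37 M counts outside mitochondrial ribosomal RNA. Replicate numbers were not treated as pairs. Correlations of deviations between samples of the same number ran from -0.168 to 0.152 in 12 comparisons of groups. With 3 mice a group they cannot show that pairing is absent.

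The members and all lists were chosen with earlier results of these data known. All members were named; of each further list the 4 genes with the smallest p over the 6 responses were named, except for a gene that is not reported here. Planned protein comparisons were not analysed here.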

Additional observations from a re-analysis of the deposited data

How the results depend on the processing

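Of the 16 calls of single enzymes from 0 h or between 3 and 12 h, all 16 were kept under RLE scaling, no filter on low counts, at least 1 CPM in 3 libraries, removal of ribosomal RNA genes, DESeq2 and the replicate block. All 16 were also kept when WT 3 h replicate 1 was left out. The count was 15 with only the groups compared and 13 each with library size alone, gene-strand counts and without WT 3 h replicates 2 and 3, and 13 to 16 when each library was left out; no called change turned its direction. With the replicate number as a block the counts of enzymes called were 2, 5 and 1 in WT at 1, 3 and 12 h and 1, 1 and 1 in KO, as without it; Kyat1 between genotypes at 1 h was lost with it (adjusted p = 0.0501), and in 2 of 12 comparisons of groups every sample correlated best with its own number.

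With library size alone the counts were 3 in WT at 3 h, 5 in WT at 12 h, 0 in KO at 1 h, 4 in KO at 12 h, 5 in WT and 6 in KO between 3 and 12 h. That scaling moved the share of calls that were higher from 51.5% to 36.6% in WT at 3 h, from 52.4% to 17.6% in WT at 12 h and from 52.3% to 26.3% in KO at 12 h. Between 3 and 12 h it moved from 58% to 19.6% in WT and from 60.8% to 22.6% in KO. Gene-strand counts gave 0 in KO at 1 h and 0 at 12 h. With only the groups compared there were 2 in WT at 12 h, 3 in KO at 3 h and 2 in KO at 12 h. DESeq2 gave 2 in KO at 3 h, and no filter gave 2 in KO at 12 h and 1 for KO against WT at 0 h. Without WT 3 h replicates 2 and 3 there were 3 in WT at 3 h, 1 in WT between 3 and 12 h, 1 for KO against WT at 0 h and 1 for the difference of responses at 1 h. The cause was not tested.

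Leaving out each library gave 1 to 3 enzymes in WT at 1 h, 3 to 6 at 3 h and 1 to 1 at 12 h; 0 to 2 in KO at 1 h, 1 to 2 at 3 h and 0 to 2 at 12 h; 2 to 2 in WT and 1 to 3 in KO between 3 and 12 h; and 0 to 1 for KO against WT at 0 h and for the difference of responses at 1 h. Values near 0 turned sign: Ahcy in WT at 12 h was -0.02, 0.0138 with gene-strand counts and -0.0911 to 0.0188 without single libraries. Cbs in KO at 12 h was -0.12, and -0.26 to 0.155 without single libraries, the highest without KO 0 h replicate 3. With 3 mice a group, the smallest change called was -0.35 on the log2 scale, for Bhmt2, and Gss rested on 18 to 73 counts per library.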
